A study of Mus musculus with 24 samples.

Results

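Brown fat effector genes are the genes through which a brown adipocyte burns fuel and turns it into heat, and 8 of them were followed here among the 49452 genes of the deposited expression table. They are *Ucp1*, *Cidea*, *Elovl3*, *Cpt1b*, *Cox7a1*, *Cox8b*, *Dio2* and *Letmd1*, taken by symbol, and each has 1 row in the table. The values come from RNA-Seq of 24 cultures of primary (1°) precursor cells from young adult male C57BL/6 mice, without any genetic modification. Cells of either depot (BAT or vWAT) received siCtrl or siH19 and were harvested on d0 or d3, which gives 8 groups of 3 cultures. BAT is interscapular brown fat, vWAT is the epididymal or perigonadal white depot, and the precursors are the stromal-vascular fraction left after the lipid-filled cells are removed, with BAT pooled over animals where needed. siCtrl is a non-targeting siRNA and siH19 targets the long noncoding RNA *H19*, both given by nucleofection before differentiation, so that d0 cells had also been transfected. d3 cells had spent 3 days in differentiation conditions. The BAT medium contained indomethacin and triiodothyronine and the vWAT medium rosiglitazone, and BAT and vWAT libraries carry different series labels, so that depot, medium and library set cannot be told apart. The stromal-vascular fraction is a mixture, and in such bulk RNA fewer cells of a type and less RNA per cell cannot be told apart either. No source states that the 3 cultures of a group came from separate mice, and p-values then measure only the spread between these cultures.

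Brown adipocytes produce heat because the uncoupling protein UCP1 lets protons return into the mitochondrial matrix without making ATP. The fuel is fatty acid released from many small lipid droplets, carried into mitochondria by carnitine palmitoyltransferase 1 and oxidized by a respiratory chain rich in cytochrome c oxidase. Several effectors are depot- or tissue-restricted members of families whose other members work in most cells, and thyroid hormone, activated inside the cell by the deiodinase DIO2, raises the expression of the program.

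Expression is given as FPKM, a level per transcript length, in which fragment numbers are divided by transcript length in kilobases and by library size. How many fragments each library held is not known. Relative depth, read from the steps between low values, was 0.839 to 1.00 in BAT and 1.03 to 1.19 in vWAT libraries, and replicate libraries correlated with Pearson r of 0.988 to 0.991 across genes on the log2(FPKM + 1) scale. The targeted gene *H19* had 83.2 to 99.7 FPKM in siCtrl and 12.04 to 16.9 FPKM in siH19 BAT libraries at d3, and 8.19 to 8.90 FPKM against 0.291 to 0.966 FPKM in vWAT libraries. At d0 the group means were 130 FPKM against 4.36 FPKM in BAT and 11.7 FPKM against 1.21 FPKM in vWAT. *H19* was called lower in siH19 in each of the 4 comparisons, and the level left in siH19 BAT cells at d3 was higher than that of untargeted vWAT cells. Rows overlapping that of *H19*, among them *Mir675* on the same strand, reached up to 174 FPKM. Reads of such overlaps cannot be assigned with certainty. Differences were tested with limma on log2(FPKM + 1) among genes with at least 1 FPKM in at least 3 libraries of a comparison. A call required a change of 1.3-fold or more on that scale and an adjusted p (Benjamini-Hochberg, over all genes tested) under 0.05. On this scale the changes of genes with low values appear too small.

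The siRNA strands are shown because they are the agent of every siH19 comparison, and the promoter sequences below as a description of the effectors. In siH19 BAT cells at d3, 7 of the 8 effectors were called lower and the *Dio2* difference was not resolved. A relation of promoter motifs to these differences was not tested. The labels write siH19 with the number 3, and the study lists several siRNAs against *H19*, so that which strand was used in these libraries is not settled. The guide strands are printed with the seed, bases 2 to 8, in capitals.
siH19 guide: uCUUGAUUcagaacgagacgg
siH19#3 guide: uGGUGUUCaagaaggcuggat
The first pairs with chr7:142576255-142576273 on the minus strand of GRCm38, in exon 4 of the longest of 5 annotated *H19* transcripts that hold the site. The second pairs across the junction of exon 2 (chr7:142576613-142576624) and exon 3 (chr7:142576524-142576530) of the same transcript. A match to the first seed occurs once in the longest transcripts of *Cpt1b* and *Dio2* and in none of the other 6 effectors, and one to the second seed occurs once in *Letmd1* only. Such matches are held by 18.7% and 17.7% of the longest transcripts of 21877 protein-coding genes.

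RefSeq promoter windows (GRCm38.p6), cut here to the 250 bases before the annotated start, were used for 5 of the 8 effectors. *Cidea*, *Elovl3* and *Cpt1b* were not searched, so that nothing is said about their promoters. They were searched on both strands for the nuclear receptor half-site AGGTCA, the cAMP response element TGACGTCA and the TATA box TATAAA, and matches, which do not overlap each other, are in capitals.
Ucp1, chr8:83290098-83290347, plus strand: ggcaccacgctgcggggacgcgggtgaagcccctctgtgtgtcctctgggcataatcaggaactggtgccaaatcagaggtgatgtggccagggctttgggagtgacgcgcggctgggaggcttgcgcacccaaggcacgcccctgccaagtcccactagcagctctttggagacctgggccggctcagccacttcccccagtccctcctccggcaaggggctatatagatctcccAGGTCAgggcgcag
Letmd1, chr15:100468761-100469010, plus strand: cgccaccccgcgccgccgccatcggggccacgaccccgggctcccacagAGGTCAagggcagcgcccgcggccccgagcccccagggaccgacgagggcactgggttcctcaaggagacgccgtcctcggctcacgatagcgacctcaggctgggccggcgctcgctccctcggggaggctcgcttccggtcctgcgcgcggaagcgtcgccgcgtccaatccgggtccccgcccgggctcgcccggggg
Dio2, chr12:90739039-90739288, minus strand: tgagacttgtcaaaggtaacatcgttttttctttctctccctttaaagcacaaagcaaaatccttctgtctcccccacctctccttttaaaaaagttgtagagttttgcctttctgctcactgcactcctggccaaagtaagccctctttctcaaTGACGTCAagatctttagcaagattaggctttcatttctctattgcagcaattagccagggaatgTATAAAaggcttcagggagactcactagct
The half-site begins 14 bases before the *Ucp1* start and 201 bases before that of *Letmd1*, and is not in the *Dio2* window. The *Dio2* window holds the cAMP response element 95 bases and the TATA box 30 bases before its start, and neither is in the other windows searched. The windows of *Cox7a1* and *Cox8b* hold none of the 3 motifs. Of 32851 promoter windows of this length, 14.02% hold the half-site, 1.55% the cAMP response element and 12.37% the TATA box, and a match describes letters in a window, not a bound site.

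**Figure D1:**
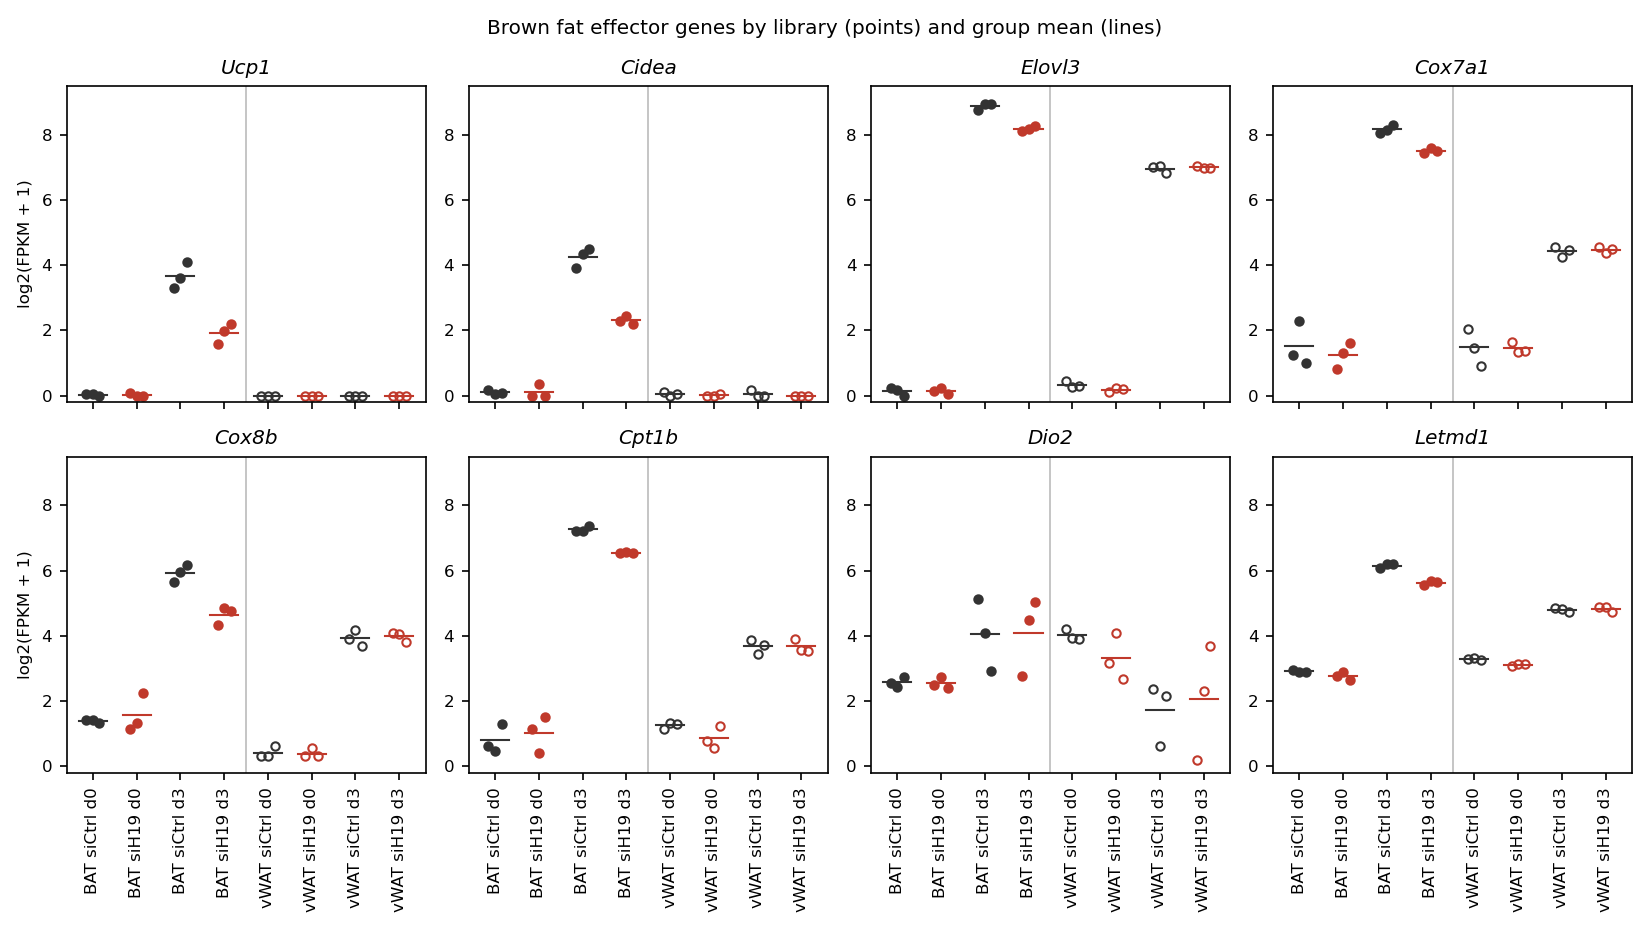
Levels of the 8 effectors on the log2(FPKM + 1) scale in each library (points; filled BAT, open vWAT) with the mean of the 3 libraries on that scale (lines), siCtrl in black and siH19 in red. *Ucp1* and *Cidea* lay near 0 in all but the BAT groups at d3, *Elovl3* was low at d0 and high at d3 in both depots, and the 3 libraries of *Dio2* spread widely at d3.

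At d3 siCtrl BAT cells had the highest mean level of 7 effectors, siH19 BAT cells the next, and the vWAT groups came below, as the plot of levels by library shows. The ranges of siCtrl and siH19 BAT libraries did not overlap for any of these 7, beside 13.1% of 12500 genes whose siH19 libraries all lay below the siCtrl libraries, whereas the siCtrl and siH19 vWAT libraries overlapped for *Elovl3*, *Cpt1b*, *Cox7a1*, *Cox8b* and *Letmd1*. Levels ranged widely between effectors, from 12.1 FPKM for *Ucp1* to 470 FPKM for *Elovl3* in siCtrl BAT cells. *Dio2* followed another order, with BAT at d3 highest, vWAT at d0 next and vWAT siCtrl at d3 lowest, and each group overlapped the next in the order except the lowest.

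The siH19 comparison at d3 asked whether loss of *H19* changes the effectors of differentiating cells. In BAT cells 7 of the 8 effectors were called lower in siH19, against 2.18% of 12500 genes called lower. All 8 passed the filter with values of at least 1 FPKM in both groups. The largest falls were those of *Cidea* and *Ucp1*, to 21.6% and 23.6% of the mean siCtrl level, followed by *Cox8b* at 40.3%. *Cpt1b*, *Elovl3*, *Cox7a1* and *Letmd1* kept 60.5% to 68.9%. The median log2 fold change of the 8 was -0.70, beside 0.05 over all genes tested.

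*Ucp1* (ENSMUSG00000031710, GRCm38 chromosome 8, 83290352 to 83298452, plus strand), the proton carrier itself, had 8.84, 11.2 and 16.3 FPKM in the siCtrl and 2.00, 2.93 and 3.63 FPKM in the siH19 libraries. The lowest siCtrl library thus lay above the highest siH19 library although each group spanned about the same ratio, 1.84 and 1.82. The log2 fold change was -1.75 (standard error [SE] 0.24, adjusted p = 0.0062). *Cidea* (ENSMUSG00000024526, chromosome 18, 67343564 to 67367794, plus strand) encodes a lipid droplet protein. It had 14.2, 19.5 and 21.6 FPKM in siCtrl and 3.87, 4.48 and 3.63 FPKM in siH19, and its log2 fold change was -1.95 (SE 0.16, adjusted p = 0.00197). The groups stood far apart. An antisense gene, *B430212C06Rik*, overlaps *Cidea* and stayed at or below 0.347 FPKM in every library.

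Fatty acid supply is served by *Elovl3*, an elongase of very long chain fatty acids, and *Cpt1b*, the muscle-type carnitine palmitoyltransferase. *Elovl3* (ENSMUSG00000038754, chromosome 19, 46131897 to 46135307, plus strand) was the most abundant effector, with 431, 491 and 488 FPKM in siCtrl against 278, 292 and 306 FPKM in siH19. This amounted to a log2 fold change of -0.68 (SE 0.06, adjusted p = 0.00263). *Cpt1b* (ENSMUSG00000078937, chromosome 15, 89416405 to 89425863, minus strand) had 148, 148 and 165 FPKM in siCtrl and 91.3, 94.7 and 93.0 FPKM in siH19. Its siH19 libraries lay within 1.04-fold of each other, and the log2 fold change was -0.72 (SE 0.05, adjusted p = 0.00185). The *Cpt1b* row overlaps the row of *Chkb* on the same strand, and reads of the overlap cannot be assigned with certainty. *Chkb* had a mean of 73.5 FPKM in siCtrl and 61.5 FPKM in siH19 BAT cells, 83.7% of siCtrl against 60.5% for *Cpt1b*.

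*Cox7a1* and *Cox8b* encode subunits of cytochrome c oxidase that heart and skeletal muscle also use. *Cox7a1* (ENSMUSG00000074218, chromosome 7, 30184144 to 30186078, plus strand) had 268, 285 and 316 FPKM in siCtrl and 172, 193 and 182 FPKM in siH19, a log2 fold change of -0.66 (SE 0.07, adjusted p = 0.00334). In a fit of all 24 libraries together its adjusted p was 0.0909. *Cox8b* (ENSMUSG00000025488, chromosome 7, 140898945 to 140900446, minus strand) fell further, from 48.9, 60.6 and 71.7 FPKM to 19.3, 27.9 and 25.9 FPKM, a log2 fold change of -1.28 (SE 0.18, adjusted p = 0.0062). *Letmd1* (ENSMUSG00000037353, chromosome 15, 100469034 to 100479252, plus strand) encodes a mitochondrial inner membrane protein. Its libraries had 66.3, 72.8 and 72.1 FPKM in siCtrl and 46.1, 50.6 and 48.7 FPKM in siH19, a log2 fold change of -0.53 (SE 0.06, adjusted p = 0.00355). Of the 7 it had the smallest log2 fold change.

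*Dio2* (ENSMUSG00000007682, chromosome 12, 90724554 to 90738438, minus strand), which converts thyroxine to active triiodothyronine, showed no resolved difference. It had 34.4, 16.1 and 6.62 FPKM in siCtrl and 5.84, 21.3 and 31.99 FPKM in siH19 BAT libraries at d3, so both groups covered the same range. The log2 fold change was 0.04 with a 95% confidence interval of -1.70 to 1.78 (adjusted p = 0.977), wide enough to hold both a fall of the size seen for *Cox8b* and an equal rise. In siCtrl BAT cells at d3 the library with the highest *Dio2* had the lowest *Ucp1*, whereas in siH19 BAT cells 1 library was highest for both.

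In vWAT cells none of the 6 effectors tested at d3 was called by limma (0 of 6, and 0 of 6 at an unadjusted p under 0.05), beside 0.0305% of 13097 genes. *Elovl3* had 128, 130 and 114 FPKM in siCtrl and 132, 125 and 126 FPKM in siH19, with a 95% interval of the log2 difference from -0.10 to 0.18. The corresponding intervals were -0.17 to 0.28 for *Cox7a1*, -0.28 to 0.39 for *Cox8b*, -0.36 to 0.34 for *Cpt1b* and -0.12 to 0.18 for *Letmd1*. None of these intervals reached the fall measured in BAT cells. *Dio2* could not be resolved in vWAT either, with an interval of -1.84 to 2.54. *Ucp1* was listed at 0 in all 12 vWAT libraries, and *Cidea* reached at most 0.120 FPKM, so that neither could be tested.

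**Figure D2:**
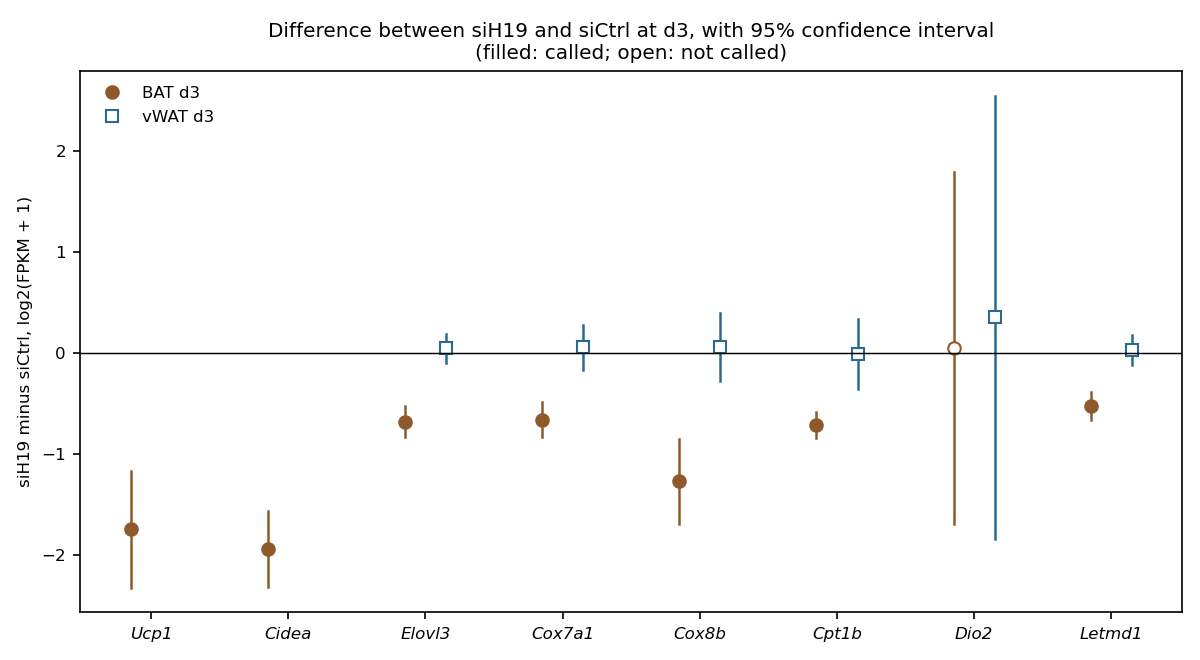
Difference of siH19 from siCtrl at d3 in log2(FPKM + 1) for each effector, as limma's estimate with its 95% confidence interval, in BAT (brown circles) and vWAT (blue squares), filled where called. Of the BAT estimates, 7 lie between -0.53 and -1.95 with intervals below 0, and the vWAT estimates other than *Dio2* lie close to 0.

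The difference between the depots was tested as the interaction of depot and siRNA on the 12 libraries at d3. It was called for 7 effectors, each with a lower siH19 effect in BAT, against 3.52% of 13762 genes called in that direction. The difference of the log2 effects was -1.89 for *Cidea*, -1.75 for *Ucp1* and -1.33 for *Cox8b* (adjusted p = 0.00135, 0.00425 and 0.00835). Since *Ucp1* and *Cidea* were at or near 0 in vWAT, their interaction repeats the BAT effect. The differences of the other 4 called effectors ranged from -0.56 for *Letmd1* to -0.73 for *Elovl3*, and that of *Dio2* was -0.31 (SE 1.31, adjusted p = 0.912). *Cpt1b* (adjusted p = 0.0237) passed 0.05 neither without siCtrl BAT library 3 at d3 (0.054), nor without siH19 BAT library 1 at d3 (0.0524), nor without the filter (0.0527). In a fit of all 24 libraries *Cox7a1* and *Cpt1b* were not called (adjusted p = 0.272 and 0.189).

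At d0 siH19 had no called effect on the effectors in either depot. Of 5 effectors tested in BAT 0 were called by limma, also 0 at an unadjusted p under 0.05, beside 1.94% of genes called, and of 4 tested in vWAT 0 were called and 1, *Letmd1*, had an unadjusted p under 0.05 (0.0324, adjusted 0.233), beside 1.53%. *Letmd1* had 6.80, 6.34 and 6.42 FPKM in siCtrl and 5.81, 6.47 and 5.29 FPKM in siH19 BAT libraries at d0. Its 95% interval there, -0.34 to 0.07, did not reach the fall at d3. The intervals of *Cox7a1* (-1.16 to 0.62) and *Cpt1b* (-0.59 to 1.03) in BAT were wide, and their levels near 1 FPKM differed up to several-fold between replicates.

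Whether the siH19 effect in BAT cells differed between d0 and d3 was tested as the interaction of day and siRNA. Lower values at d3 were called for *Ucp1*, *Cidea*, *Elovl3*, *Cox8b* and *Letmd1* (5 of 8), against 1.27% of 13575 genes. *Ucp1*, *Cidea* and *Elovl3* were below 1 FPKM in every d0 library, so that their values here repeat the d3 effect, and of the 5 only *Cox8b* and *Letmd1* reached 1 FPKM at d0. The differences of the log2 effects were -1.75, -1.96, -0.70, -1.46 and -0.39, and the adjusted p-values ranged from 0.000814 to 0.0328. *Cox7a1* and *Cpt1b* had differences of -0.39 and -0.94 (adjusted p = 0.625 and 0.154). This count rested on the pseudocount, since adding 0.1 in place of 1 FPKM left only *Ucp1* called (1 of 8), and it was 3 of 8 without the filter and 3 to 5 of 8 when single libraries were left out. *Cox8b* and *Letmd1* were those lost without the filter (adjusted p = 0.071 and 0.0553). Both also lost their calls without siCtrl library 2 or 3 at d0 or d3. The same held without siH19 library 1 or 3 at d3 (adjusted p of 0.0533 to 0.0837 over these fits).

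With differentiation the effectors rose in BAT cells, and 5 of them in vWAT cells too, where *Ucp1* stayed at 0, *Cidea* near 0 and *Dio2* fell in siCtrl. From d0 to d3 all 8 were called higher in siCtrl BAT cells, beside 29.9% of 13001 genes, and all 8 in siH19 BAT cells, beside 30.8%. *Ucp1*, *Cidea* and *Elovl3* were below 1 FPKM in every d0 library and passed the filter through d3 alone, so they had to differ. For the genes with values in both groups, *Cox7a1* rose by 6.66 and *Cpt1b* by 6.48 on the log2 scale in siCtrl (SE 0.32 and 0.21), from 1.00 to 3.93 FPKM to 268 to 316 FPKM and from a mean of 0.794 FPKM to one of 154 FPKM. *Cox8b* rose by 4.54 (SE 0.14) and *Letmd1* by 3.25 (SE 0.06). In siH19 BAT cells these 4 rises were 6.27, 5.54, 3.08 and 2.85 on the same scale. The *Dio2* rise of 1.47 in siCtrl (SE 0.51, adjusted p = 0.0344) was called, but not without any single d0 library, without siCtrl d3 library 1 (0.93, adjusted p = 0.0528) or 2, without the filter or in a fit of all 24 libraries (adjusted p up to 0.0842). In siH19 cells its rise of 1.56 (SE 0.54, adjusted p = 0.0362) likewise lost its call without any d0 library, without d3 library 2 or 3 (0.102 and 0.0951), without the filter or in a fit of all 24 libraries (0.0861 and 0.0577).

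In siCtrl vWAT cells 6 effectors were tested, and 5 rose while *Dio2* fell (6 of 6 called, beside 50.3% of 13368 genes). *Elovl3* and *Cox8b* passed the filter through d3 alone. *Cox7a1* rose by 2.95, *Cpt1b* by 2.44 and *Letmd1* by 1.51 on the log2 scale (SE 0.28, 0.13 and 0.06), each less than in BAT. *Dio2* fell by 2.30 (SE 0.45, adjusted p = 0.00372), from 17.6, 14.1 and 14.0 FPKM to 4.20, 0.527 and 3.45 FPKM. In siH19 vWAT cells the same 5 rose, beside 28.2% of genes called higher. There *Dio2* had 8.02, 16.1 and 5.41 FPKM at d0 and 0.151, 3.91 and 11.9 FPKM at d3, a log2 fold change of -1.25 that was not called (adjusted p = 0.237) except without d3 library 3 (-2.07, adjusted p = 0.0433).

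**Figure D3:**
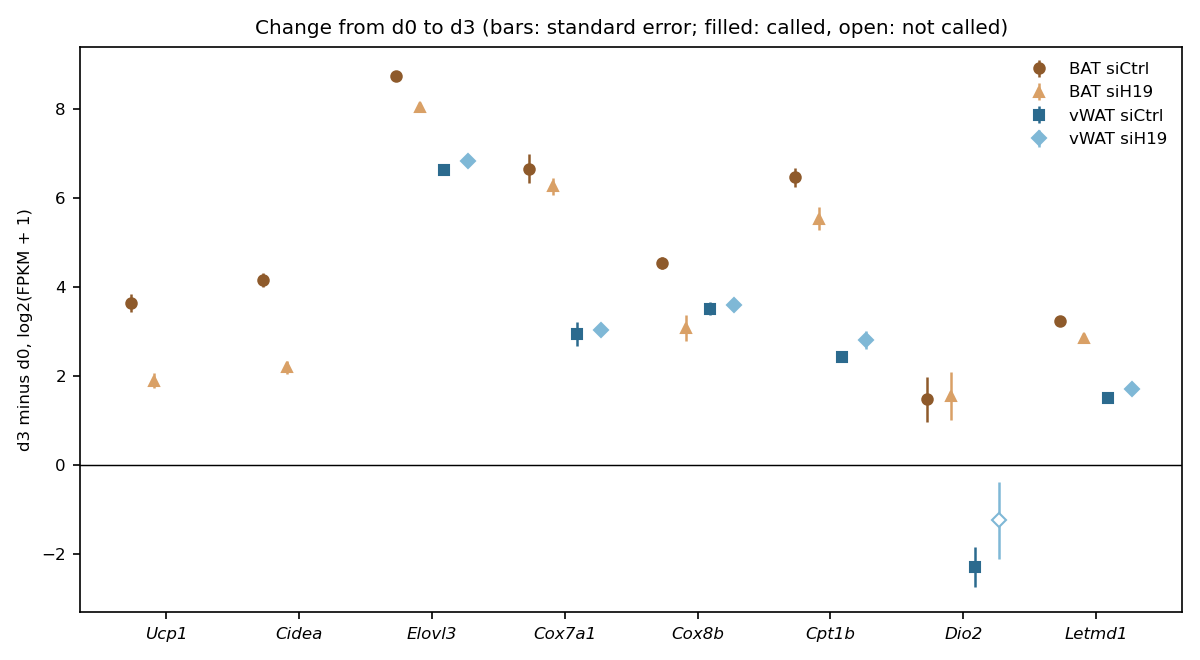
Change of each effector from d0 to d3 in log2(FPKM + 1) with limma's standard error, in BAT and vWAT cells with siCtrl or siH19, filled where called and open where not. The BAT rises exceed the vWAT rises for *Elovl3*, *Cox7a1*, *Cpt1b* and *Letmd1* under both siRNAs, and *Dio2* rose in BAT and fell in siCtrl vWAT cells.

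The interaction of depot and day in siCtrl cells was called higher in BAT for all 8 effectors, beside 24.9% of 14111 genes. *Ucp1* and *Cidea* were at or near 0 in all groups but BAT at d3, so they had to differ. *Cpt1b*, *Cox7a1* and *Dio2* had the largest differences among effectors measured at 1 FPKM or more in both depots, 4.04, 3.72 and 3.77 on the log2 scale (adjusted p = 4.74e-07, 6.43e-05 and 0.00166). *Letmd1* differed by 1.73 and *Elovl3* by 2.11. The difference of 1.02 for *Cox8b* (adjusted p = 0.00238) came to 0.04 (adjusted p = 0.935) with a pseudocount of 0.1. The starting levels of *Cox8b* at d0 were 0.238 to 0.526 FPKM in vWAT and 1.51 to 1.67 FPKM in BAT.

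BAT and vWAT cells were also compared directly. At d0 in siCtrl cells 2 of 5 effectors tested were called, *Cox8b* higher and *Dio2* lower in BAT, beside 31.2% of 13139 genes called in either direction. *Cox8b*, which passed the filter through BAT alone, differed by 0.97 on the log2 scale (adjusted p = 0.00062). *Dio2* had 4.87, 4.44 and 5.71 FPKM in BAT against 17.6, 14.1 and 14.0 FPKM in vWAT, a log2 difference of -1.43 (SE 0.12, adjusted p = 0.00014), and was not called in a fit of all 24 libraries (adjusted p = 0.106), which left 1 effector called. *Letmd1* was lower in BAT, at 6.34 to 6.80 FPKM against 8.53 to 8.96 FPKM, but by less than 1.3-fold on the log2 scale (-0.38, adjusted p = 0.00333). At this stage no effector other than *Cox8b* was thus called higher in the brown precursors.

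At d3 in siCtrl cells all 8 effectors were called higher in BAT, beside 16.5% of 13120 genes. The ratio of the means was 14.1 for *Cox7a1*, 12.9 for *Cpt1b*, 6.98 for *Dio2*, 4.19 for *Cox8b*, 3.78 for *Elovl3* and 2.62 for *Letmd1*. *Ucp1* and *Cidea* passed only through BAT, and vWAT cells were listed at or near 0. The *Dio2* call (log2 difference 2.34, standard error 0.66, adjusted p = 0.019) was lost without siCtrl BAT library 1 or 2 at d3 (adjusted p = 0.0508 and 0.0504). In siH19 cells 7 of 8 were called higher in BAT, beside 15.9% of 13121 genes. Again *Ucp1* and *Cidea* passed only through BAT, so they had to differ. The ratios in siH19 cells were 8.56 for *Cox7a1*, 7.84 for *Cpt1b*, 2.28 for *Elovl3*, 1.77 for *Letmd1* and 1.63 for *Cox8b*. *Dio2* differed by 2.03 (SE 0.96, adjusted p = 0.113), and was called without siH19 vWAT library 3 at d3 (2.85, adjusted p = 0.0392), in a fit of all 24 libraries (adjusted p = 0.02) and with the replicate block (adjusted p = 0.00331). These comparisons moved the median of all genes by -0.13 at d0 and -0.16 at d3 in siCtrl, and values are not corrected for it.

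Markers of other cells moved with these comparisons. Skeletal muscle genes were much higher in BAT cultures, where the summed level of the 12 muscle genes analysed was 266 to 300 FPKM in siCtrl and 317 to 487 FPKM in siH19 at d3, against 19.6 to 22.6 FPKM and 22.8 to 30.2 FPKM in vWAT. *Myod1* and *Myog*, the defining regulators of muscle cells, were listed at 0 in all vWAT libraries at d3 and in no BAT group. In siCtrl cells at d3, 8 of 9 muscle genes tested were called higher in BAT, beside 16.5% of genes. Among them were *Mylpf*, a fast muscle myosin light chain, by 5.604, *Tnnt3*, a troponin, by 3.93 and *Myh3*, an embryonic myosin heavy chain, by 3.53. *Myog*, a muscle transcription factor, was higher by 3.30 and *Myh1* by 3.09 on the same log2 scale. Most of the muscle sum in BAT at d3 came from *Mylpf*, with means of 191 FPKM in siCtrl and 292 FPKM in siH19. *Cox7a1*, *Cox8b* and *Cpt1b* are used by muscle as well, and the part of muscle cells in their BAT levels was not tested. The muscle sum was higher at d0, at 379 to 632 FPKM in siCtrl BAT, when these 3 effectors were at or below 3.93 FPKM. At d3 the sum was higher with siH19 in BAT, while the 3 effectors were lower. *Des*, a muscle filament gene, was the 1 of 9 muscle genes called there (0.44), beside 6.39% of genes called higher. Macrophage markers went the other way by depot, with a sum of 6 genes of 126 to 158 FPKM in siCtrl and 79.2 to 90.5 FPKM in siH19 BAT at d3, and 463 to 505 FPKM in siCtrl and 522 to 588 FPKM in siH19 vWAT at d3. Most of each sum came from *Lyz2*, with siCtrl means of 128 FPKM in BAT and 443 FPKM in vWAT at d3. In siH19 BAT cells at d3 *Lyz2* and *Adgre1*, both macrophage genes, were 2 of 4 called lower (-0.71 and -0.66), beside 2.18% of genes. The sum of 5 endothelial genes stayed at or below 5.08 FPKM in BAT at d3, with 0 of 2 tested called.

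General adipocyte markers were followed beside the effectors. In siCtrl BAT cultures 13 of 14 tested were called higher at d3 than at d0, beside 29.9% of genes. The other, *Cfd*, was called lower, with means of 226 FPKM at d0 and 16.1 FPKM at d3. Its level at d3 thus cannot be read as a degree of differentiation. In BAT at d3 the sum of 15 markers was 43862 to 45845 FPKM in siCtrl and 39501 to 42094 FPKM in siH19. Of 14 tested 3 were called lower in siH19, beside 2.18% of genes. They were *Slc2a4*, the insulin-sensitive glucose transporter, *Cfd* (adipsin) and *Pnpla2*, a triglyceride lipase (-0.83, -0.81 and -0.39). The median log2 fold change of these 14 was -0.15, beside -0.70 for the effectors. Most of the marker sum came from *Fabp4*, with means of 27821.9 FPKM in siCtrl and 25710.5 FPKM in siH19 BAT at d3. *Pparg*, the regulator of fat cell formation, stood at 124 ± 1.55 FPKM in siCtrl and 125 ± 9.15 FPKM in siH19 (SD, n = 3). At d0 the marker sum was 3630 to 3951 FPKM in siCtrl and 1788 to 2394 FPKM in siH19 BAT cells. Of 14 markers tested 9 were called lower, beside 167 of 12651 genes. Of the effectors 0 of 5 tested were called, and *Ucp1*, *Cidea* and *Elovl3* could not be tested. Among those 5 only the interval of *Cox7a1* (-1.16 to 0.62) held the marker median of -0.86. At the siCtrl means of *Cox8b* and *Cpt1b* (1.61 and 0.794 FPKM), however, changes on this scale appear too small. In vWAT at d0 10 of 13 markers were called lower, beside 157 of 13063 genes. At d3 0 of 14 were called there, beside 0.0305% of genes. Over all genes the number of d0 calls fell whichever library was left out. It went from 245 to 12 to 61 in BAT and from 200 to 39 to 116 in vWAT. The markers were not followed in these fits. All 14 markers tested in BAT at d0, and all 13 in vWAT, had lower estimates in siH19. In BAT the libraries stood apart for *Adipoq* (184 to 222 FPKM in siCtrl, 63.5 to 103 FPKM in siH19) and *Fabp4* (1906 to 2073 FPKM and 883 to 1222 FPKM). Those of *Slc2a4* overlapped. The study reported that the precursor genes *Dlk1*, *Runx2*, *Pdgfra*, *Gata2*, *Ly6a* and *Tgfb2* stayed high in BAT-derived cells after *H19* silencing. The precursor list holds these genes, so that its count is no independent support. Precursor genes were called higher in siH19 BAT at d3 for 7 of 9 tested, beside 6.39% of genes. Their sum over 10 genes was 648 to 705 FPKM in siH19 against 389 to 437 FPKM in siCtrl. The largest rises among them were those of *Runx2*, *Tgfb2*, *Ly6a* and *Gata2* (0.93, 0.88, 0.85 and 0.80). Most of the precursor sum came from *Ly6a*, with means of 252 FPKM in siCtrl and 456 FPKM in siH19. The part of fewer differentiated cells in the lower effector levels was not tested.

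Other genes of the brown fat program gave a mixed picture in siH19 BAT cells at d3. Of 13 further brown fat genes tested 4 were called lower and 0 higher, beside 2.18% and 6.39% of genes. Called lower were *Plin5*, which ties lipid droplets to mitochondria, and *Pank1*, of coenzyme A synthesis (-0.71 and -0.65). So were *Slc36a2*, an amino acid transporter, and *Ehhadh*, of peroxisomal fatty acid oxidation (-0.57 and -0.55). The median of the 13 was -0.29. Of 14 regulators tested 3 were called lower and 0 higher, beside the same shares of genes. They were *Ppara*, the fatty acid-sensing nuclear receptor, *Ppargc1a*, the coactivator of mitochondrial genes, and *Adrb3*, the noradrenaline receptor of adipocytes (-0.92, -0.81 and -0.52). *Prdm16*, which specifies the brown lineage, differed by 0.02 on the log2 scale (SE 0.23, adjusted p = 0.963). In vWAT at d3 0 of 12 further brown fat genes and 0 of 12 regulators were called, beside 0.0305% of genes.

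Each effector was set beside a paralog, as its share of the summed FPKM of the pair. In siCtrl BAT cells at d3 *Ucp1* made up 3.87% ± 1.07 (SD, n = 3) of the sum with *Ucp2*, and *Cidea* 0.503% ± 0.0843 (SD, n = 3) of that with *Cidec*, so that the paralog was by far the more abundant. *Ucp2* is expressed in many tissues, whereas *Cidec* is itself an adipocyte gene and one of the adipocyte markers above. *Cox8b* held 4.54% ± 0.728 (SD, n = 3) beside *Cox8a* and *Cox7a1* 25.4% ± 1.15 (SD, n = 3) beside *Cox7a2*. *Elovl3* and *Cpt1b* in contrast dominated their pairs, with 99.1% ± 0.116 beside *Elovl6* and 93.2% ± 0.138 beside *Cpt1a* (SD, n = 3). In siH19 BAT cells the shares were lower in every library for *Ucp1* (0.734%, 1.07% and 1.297%), *Cidea* (0.111% to 0.142%), *Cox8b* (1.74% to 2.49%), *Cox7a1* (17.8% to 20.5%), *Cpt1b* (85.5% to 86.7%), *Elovl3* (98.1% to 98.6%) and *Letmd1* (30.9% to 32.02%, against 33.3% to 34.1% beside *Letm1*). With 3 libraries against 3, an exact permutation test could not give a two-sided p under 0.1, and none was run on the shares. A share falls with the effector's own level, so that these values partly repeat the falls above. How often the shares of other gene pairs separate was not computed.

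Of 17 paralogs tested in siH19 BAT cells at d3, 2 were called higher, *Dio3* (0.83) and *Cpt1c* (0.44), and 0 lower. Over all genes 6.39% were called higher and 2.18% lower. The median log2 fold change of the 17 was -0.13. *Ucp2* and *Cox7a2* had -0.13 each (adjusted p = 0.0572 and 0.16). *Cidec* had -0.19 and *Cox8a* -0.18, with adjusted p of 0.024 and 0.0342 but changes below the 1.3-fold minimum. *Letm1*, the paralog of *Letmd1*, had -0.38 (adjusted p = 0.0078), just short of the 1.3-fold minimum. *Cpt1a*, the liver-type enzyme, had 0.38 (adjusted p = 0.0211), also below the minimum, while *Cpt1b* fell. In vWAT at d3 *Cpt1b* held only 44.9% ± 3.48 (SD, n = 3) of the pair in siCtrl and 44.4% ± 4.98 (SD, n = 3) in siH19, and at d0 the group means were 3.11% to 9.60% in both depots. *Dio2* held 38.1% to 79.2% of the sum with *Dio3*, which inactivates thyroid hormone, in siCtrl BAT at d3, and 24.5% to 62.4% in siH19, and the libraries overlapped. In vWAT at d3 its share was 0.898% to 8.56% in siCtrl, where *Dio3* had a mean of 52.0 FPKM against 9.39 FPKM in BAT.

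**Figure D4:**
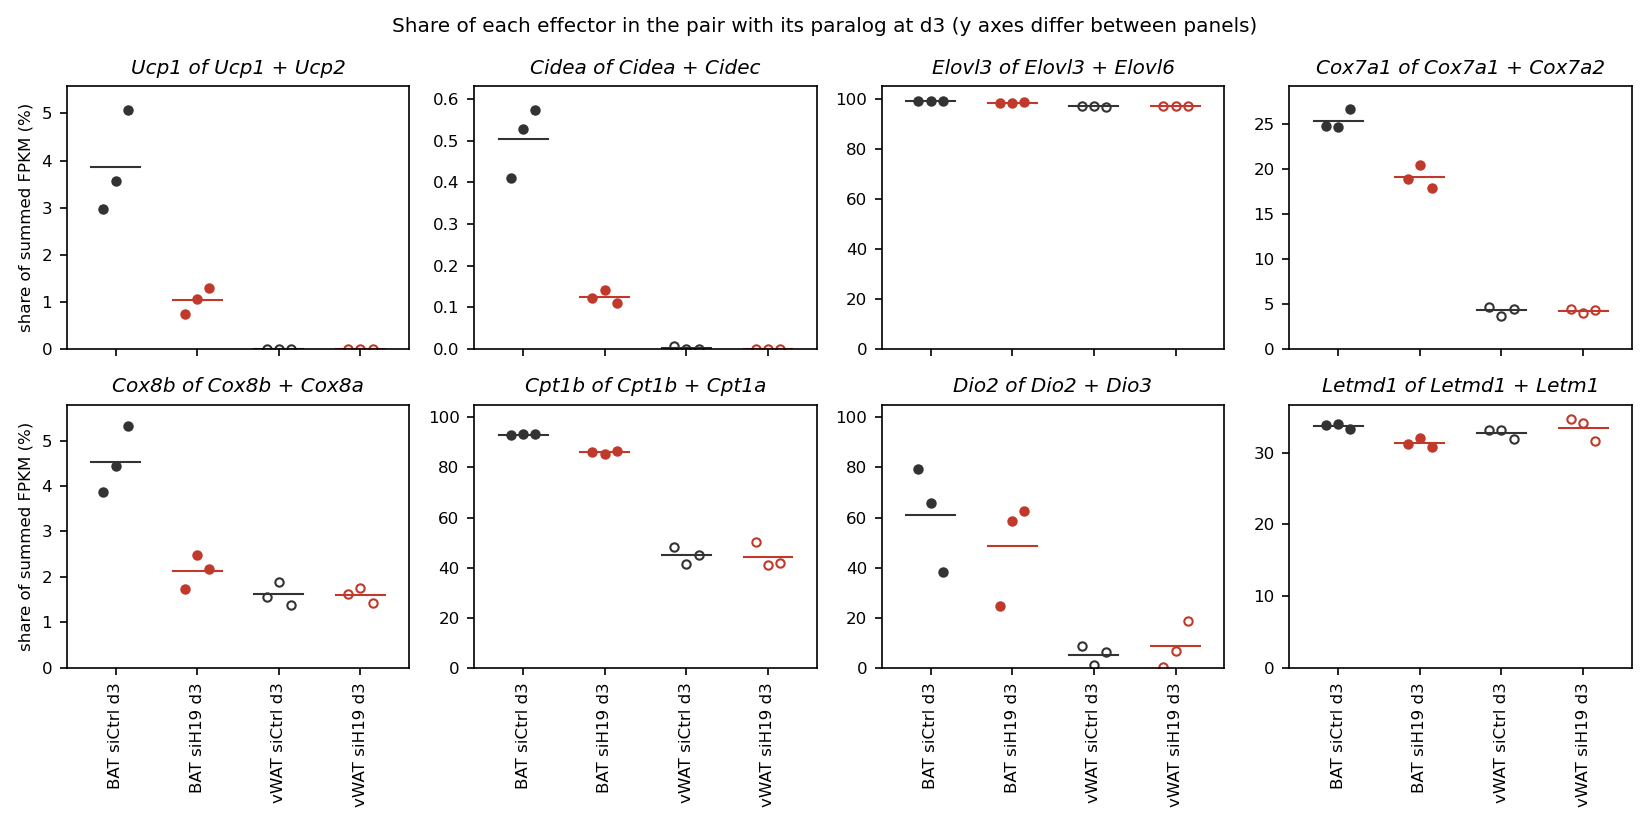
Share of each effector in the summed FPKM of the pair with its paralog at d3, in percent, per library (points; filled BAT, open vWAT) with the group mean (lines), siCtrl in black and siH19 in red, with a separate y axis starting at 0 in each panel. In BAT the siH19 libraries lie below the siCtrl libraries in 7 panels and overlap in that of *Dio2*, and the siCtrl and siH19 vWAT libraries overlap throughout. How often the shares of other gene pairs separate was not computed.

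Effectors differed in how closely they followed each other. Over the 8 group means, the 21 pairs without *Dio2* had Pearson r between 0.654 and 1.00 (median 0.941) on the log2(FPKM + 1) scale, and *Ucp1* and *Cidea* formed the closest pair. Pairs with *Dio2* had r between 0.053 and 0.626. All points share the same 8 groups, so these values are a description of parallel levels. Among 12628 other genes, effectors left out, those with group means most like *Cpt1b* were *Plin5*, *Zbtb7b* and *Ppargc1b* (r = 0.999 each), and *Letmd1* was closest to *Mrps2*, *Pgm2* and *Mrpl51* (1.00, 0.999 and 0.999). *Cox7a1* was closest to *Rtn4ip1*, *Hpdl* and *Dhrs7b* (0.999 each), *Cox8b* to *Sirt5*, *Ube3b* and *Mief2* (0.998, 0.992 and 0.992) and *Elovl3* to *Slc25a34*, *Coq2* and *Aldh3b2* (1.00, 0.999 and 0.999). *Ucp1* and *Cidea* shared *Gpld1* and *Osbpl2* as their nearest genes outside the effectors (r of 0.975 to 0.977), followed by *Stau2* and *Eif1ad*, and *Dio2* was nearest to *Cct3*, *Slc4a7* and *Lhfpl2* (0.978, 0.977 and 0.977).

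Replicate spread set what could be seen for each effector. The SD of log2(FPKM + 1) within groups was 0.95 for *Dio2*, larger than that of all but 2.57% of 14694 genes, and the median of genes at a similar level was 0.131. *Dio2* libraries of 1 group differed up to 78.8-fold in siH19 vWAT cells at d3 and 5.19-fold and 5.48-fold in BAT at d3, but only 1.29-fold and 1.32-fold in BAT at d0. *Letmd1*, at 0.0714, was among the steadier genes, with 83.2% of genes more variable. *Cox7a1* and *Cpt1b* (0.364 and 0.307) varied mainly at d0, where *Cox7a1* had 1.37, 3.93 and 1.00 FPKM in siCtrl BAT libraries. An antisense gene overlapping *Dio2*, *Gm26512*, stayed at or below 0.0840 FPKM.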

How the data were processed

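RNA of 24 cultures was sequenced, and the groups were taken from the sample labels. The sample titles write siKO, read here as siCtrl, and WAT, read here as vWAT. The authors aligned reads to GRCm38 with TopHat2 2.0.10 and reassembled transcripts with Cufflinks (2.2.1 in the submitters' processing notes, which also name STAR and DESeq2) on the Ensembl annotation. The authors deposited 1 table of FPKM values without read counts. The table names no unit, and FPKM is the unit in the study's figures. The labels describe a directional kit, and whether counting used strand is not given in the sources used here. No column was left out (0). FPKM are relative, so that a rise of abundant genes lowers all others, and a 0 was not read as absence.

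Values were analysed as log2(FPKM + 1) with limma 3.58.1 (R 4.3.3, intensity trend) for 11 comparisons of 2 groups and 3 interactions, the latter with no minimum fold change for a call. Genes were required to reach 1 FPKM in 3 libraries of the comparison. Alternatives were a pseudocount of 0.1, no filter, median-ratio scaling, 1 fit of all 24 libraries, the replicate number as a block, no minimum fold change and leaving out each library with the genes tested kept. The test was tried on simulated data. Blank symbols were filled by gene ID (49198 of 49452 rows with a symbol in the end). The remaining steps ran in pandas 2.3.3, numpy 2.4.6 and matplotlib 3.10.9 under Python 3.11.15.

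The effectors, paralogs and marker lists were chosen with earlier results of these data known. Named genes were the 8 effectors in each comparison, their 8 paralogs beside shares, *H19*, up to 5 called genes of each other list per comparison (largest change first) and the 3 genes nearest to each effector in group means. *Prdm16*, *Pparg* and further paralogs were named after their values were seen.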

Additional observations from a re-analysis of the deposited data

Results flagged for a closer look

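Differences between groups in the same contrast were found by limma's interaction tests for the following effectors. The siH19 effect at d3 was lower in BAT than in vWAT by log2 differences of -1.75 for *Ucp1*, -1.89 for *Cidea*, -0.73 for *Elovl3*, -0.71 for *Cox7a1*, -1.33 for *Cox8b*, -0.71 for *Cpt1b* and -0.56 for *Letmd1*. Within BAT the siH19 effect was lower at d3 than at d0 by -1.75 for *Ucp1*, -1.96 for *Cidea*, -0.70 for *Elovl3*, -1.46 for *Cox8b* and -0.39 for *Letmd1*. Of these only *Ucp1* kept its call with a pseudocount of 0.1. *Cox8b* and *Letmd1* also lost theirs without the filter and without several single libraries. In siCtrl cells the change from d0 to d3 was larger in BAT than in vWAT by 3.64 for *Ucp1*, 4.16 for *Cidea*, 2.11 for *Elovl3*, 3.72 for *Cox7a1*, 1.02 for *Cox8b*, 4.04 for *Cpt1b*, 3.77 for *Dio2* and 1.73 for *Letmd1*. *Ucp1* and *Cidea* were at or near 0 in all groups but BAT at d3, so that each of their 3 differences rests on the BAT libraries at d3. *Elovl3* was below 1 FPKM at d0, so that its difference between days rests on d3 as well. The depot and day difference of *Cox8b* rests on the pseudocount, since limma gave 0.04 (adjusted p = 0.935) with 0.1 FPKM added. Its siCtrl mean rose 37.5-fold in BAT and 42.5-fold in vWAT, so that a larger relative rise in BAT is not shown. The groups hold 3 libraries and were not searched for single outlying samples.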

How the results depend on the processing

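No alternative reversed a called effector. Among the values of single effectors under alternatives, 1216 kept their side of the threshold, 46 lost a call and 10 gained one. The number of effectors lower in siH19 BAT cells at d3 was 7 in each alternative except the fit of all 24 libraries (6, without *Cox7a1*). In the comparison of BAT with vWAT siCtrl cells at d0 that fit called 1 effector in place of 2. For the interaction of day and siRNA in BAT 5 effectors were called, but 1 with a pseudocount of 0.1, 3 without the filter and 3 to 5 without single libraries, and the cause was not tested. Median-ratio scaling changed no effector's call, but moved the share of higher calls over all genes from 74.6% to 60.5% for siH19 in BAT at d3, from 21.5% to 32.3% for siH19 in vWAT at d0, from 66.6% to 45.6% for depot and siRNA, from 86.0% to 61.1% for day and siRNA, and from 32.8% to 48.0% and 33.9% to 45.3% for BAT against vWAT in siCtrl at d0 and d3. Over all genes siH19 called 1071 genes in BAT at d3 (754 to 2023 under other settings, 638 to 926 without single libraries), 245 in BAT at d0 (2 to 518), 200 in vWAT at d0 (2 to 385) and 4 in vWAT at d3 (0 to 20). Comparing BAT with vWAT siCtrl cells at d0 called 4096 genes, 6386 without a minimum fold change.

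With the replicate block 7 effectors were lower in siH19 BAT cells at d3 and 8, in place of 7, higher in BAT than in vWAT siH19 cells at d3 (*Dio2*, adjusted p = 0.00331), and no other effector changed its call. Libraries with the same number correlated between -0.113 and 0.0616 in their deviations from group means (33 pairs). Deviations from a mean of 3 libraries cannot settle whether the same number stands for a shared preparation. Adding 1 FPKM to both genes moved 36 paralog shares by more than 1 SD. Low values are limited by depth, and without counts no counting interval can be given.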
